A study of Mus musculus with 7 samples.

Results

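Parg, which encodes the glycohydrolase that takes poly-ADP-ribose chains apart, and 9 genes of the poly-ADP-ribose polymerase (PARP) family were followed in microglia sorted from the brain of old and young male mice after ischemia. The 10 genes, Parg, Parp1, Parp2, Parp3, Parp8, Parp9, Parp10, Parp11, Parp12 and Parp14, were found by symbol among the 50686 genes of the files, and all 10 were among the 17559 genes tested. They were chosen with the difference between old and young mice already measured in these libraries. Their expression levels and fold changes are therefore given as a description, without a p-value.

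PARP enzymes use NAD+ to attach ADP-ribose to proteins and nucleic acids. Some, with Parp1 in the lead, build long chains at DNA breaks that call in repair proteins, whereas most others add a single unit, and several of these are known to be induced by interferon and to act against viruses. Chains are removed mainly by Parg, and in the injured brain excessive Parp1 activity is known for draining NAD+ and for its part in inflammatory gene expression in microglia.

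The libraries came from 4 young (aged 3 to 4 months) and 3 old (21 to 22 months) C57BL/6 males that were not treated with the microglia-depleting drug PLX5622. Each was made from the cells of 1 mouse, 4 days after an occlusion of the middle cerebral artery lasting 45 min. For this surgery the paper describes isoflurane anesthesia and buprenorphine as analgesic. Cells of both ages were sorted by FACS with antibodies to CD11b and CD45 as Bodipy+ microglia, that is, microglia whose neutral lipid droplets were stained by the dye Bodipy, so the values describe that fraction and not all microglia. The young libraries carry the animal codes 14C, 18C, 23C and 29C, and the old ones 2posI, 3posI and 4posI. Polyadenylated RNA was amplified by a low-input Smart-seq2 protocol without strand information, and the total expected counts were 45379786 to 53002386 in the young and 36574083 to 46133564 in the old libraries. Levels are given as CPM, counts scaled to each library's total over the tested genes after correction by TMM factors. Levels of different genes are compared only as TPM, which take transcript length into account.

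Microglial markers were high in all 7 libraries, and 3posI had the lowest sum. The summed level of 9 microglial markers, with Fcrls the most abundant by mean TPM over all libraries, was 17197, 21629, 13140 and 18804 CPM in the young libraries, 15571 in 2posI, 14685 in 4posI and 7109 in 3posI. Of the 8 tested microglial markers, 6 were on the lower side in old mice, and Fcrls, at 3477 to 4212 CPM in young and 3090, 1551 and 2514 CPM in old mice, was below the young range in all 3 (adjusted p = 0.176, edgeR). Among 8 markers of infiltrating monocytes, Chil3 was the most abundant on the same scale and in old mice, but Fn1 was in young mice. The summed level of the 8 was 484, 181, 217 and 219 CPM in the young libraries, 451 in 2posI and 215 in 4posI, but 2867 in 3posI. Chil3 alone reached 1426 CPM in 3posI and 68.9 CPM or less in each other library. All 8 monocyte markers were on the higher side in old mice, and the lowest adjusted p among them was 0.0539 (edgeR). Ly6c2, a surface antigen of inflammatory monocytes singled out here after its values were seen, was at 0.936 to 2.85 CPM in young mice and at 15.3, 162 and 9.59 CPM in 2posI, 3posI and 4posI. Markers of border-associated macrophages, led by Ms4a7 in young and by Pf4 in old mice, summed to 112 to 338 CPM in the young libraries, 432 in 2posI, 1022 in 3posI and 141 in 4posI. All 6 of these markers were on the higher side in old mice, and the lowest adjusted p was 0.236 (edgeR). None of the markers in these 3 lists was at 0 in all libraries. In sorted bulk RNA, fewer cells of a type and less RNA per cell cannot be told apart, and the part of the monocyte-marker RNA in the values below was not tested. For several genes the value without 3posI is also given.

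**Figure D1:**
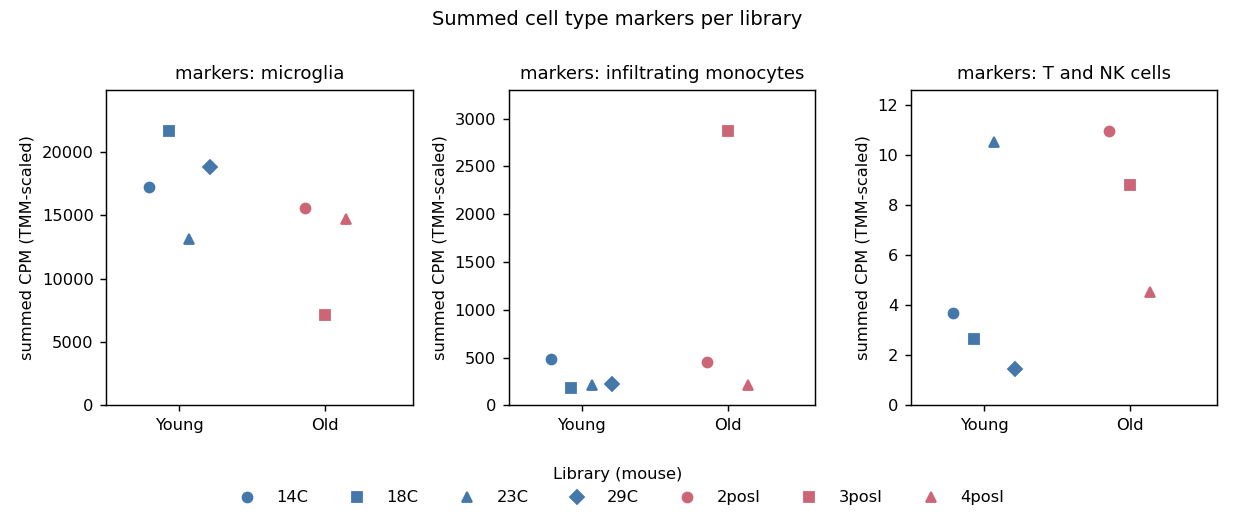
Summed level (TMM-scaled CPM, linear axis) of the markers of microglia, infiltrating monocytes, and T and NK cells in each library, with 1 point per mouse and young mice in blue, old mice in red. 3posI is lowest for microglial markers, at 7109 CPM, and highest for monocyte markers, at 2867 CPM, while the T and NK cell markers sum to 11.0 CPM or less in all 7 libraries.

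The sums of the other marker lists overlapped between the ages. Neutrophil markers, led by Csf3r in young and by S100a8 in old mice, summed to 173 to 433 CPM in young and 273 to 300 CPM in old mice. Of these 8 markers, 7 were on the higher side in old mice, with a median log2 ratio of old over young of 0.93. The lowest adjusted p among them was 0.239 (edgeR). T and NK cell markers, led by Cd4, summed to 1.46 to 10.5 and 4.51 to 11.0 CPM. Of the 8 T and NK cell markers, 7 were on the higher side in old mice, 3 of them above the young range in all old libraries (8.67% of all tested genes were), and the lowest adjusted p was 0.0565 (edgeR). Their median log2 ratio of old over young was 3.35. At an unadjusted p under 0.05 (edgeR), 6 of them were higher and 0 lower, where 18.9% of all tested genes lay in either direction. B cell markers, led by Ighm and with Pax5 at 0 in all libraries, summed to 50.2 to 205 and 80.9 to 291 CPM. Sums in young and old mice were 1.46 to 4.26 CPM over all 7 libraries for neurons (led by Rbfox3), 111 to 153 and 74.1 to 207 CPM for astrocytes (Slc1a3), 121 to 143 and 126 to 164 CPM for oligodendrocytes (Cnp), and 480 to 685 and 408 to 722 CPM for dividing cells (Pcna). Endothelial markers, led by Cldn5, summed to 64.2 to 114 CPM in young and 50.7 to 69.8 CPM in old mice, and of these Slco1a4, a transporter of the blood-brain barrier named here after its values were seen, was lower in old mice with a log2 ratio of old over young of -1.66 (adjusted p = 0.0280, edgeR), a call lost when any library other than 3posI was left out and on the log2(TPM + 1) scale.

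Across the 10 genes, Parg was far lower and Parp14 higher in old mice, and most of the others were at nearly the same level at both ages. The log2 fold change of old over young (log2FC), fitted by edgeR, was above 0 for 3 and below 0 for 7 of the 10, with a median of -0.05 beside -0.01 over all tested genes, and 7 of the 10 differed by less than 0.3 in either direction. In the edgeR fit over all tested genes, 1 of the 10, Parg, was past an adjusted p of 0.05 on the lower side, where 0.233% of all tested genes lay, a place that it lost on the log2(TPM + 1) scale and when any library other than 3posI was left out. DESeq2 called 2 of the 10, where it called 7.97% of all tested genes. In either direction edgeR called 0.803% of all tested genes, and 0.570% on the higher side. Old and young libraries did not overlap in CPM for Parg, below, where 9.07% of all tested genes were arranged in that way, and for Parp14, above, where 8.67% were. Because the 10 genes were picked on this comparison, nothing is read from these counts.

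**Figure D2:**
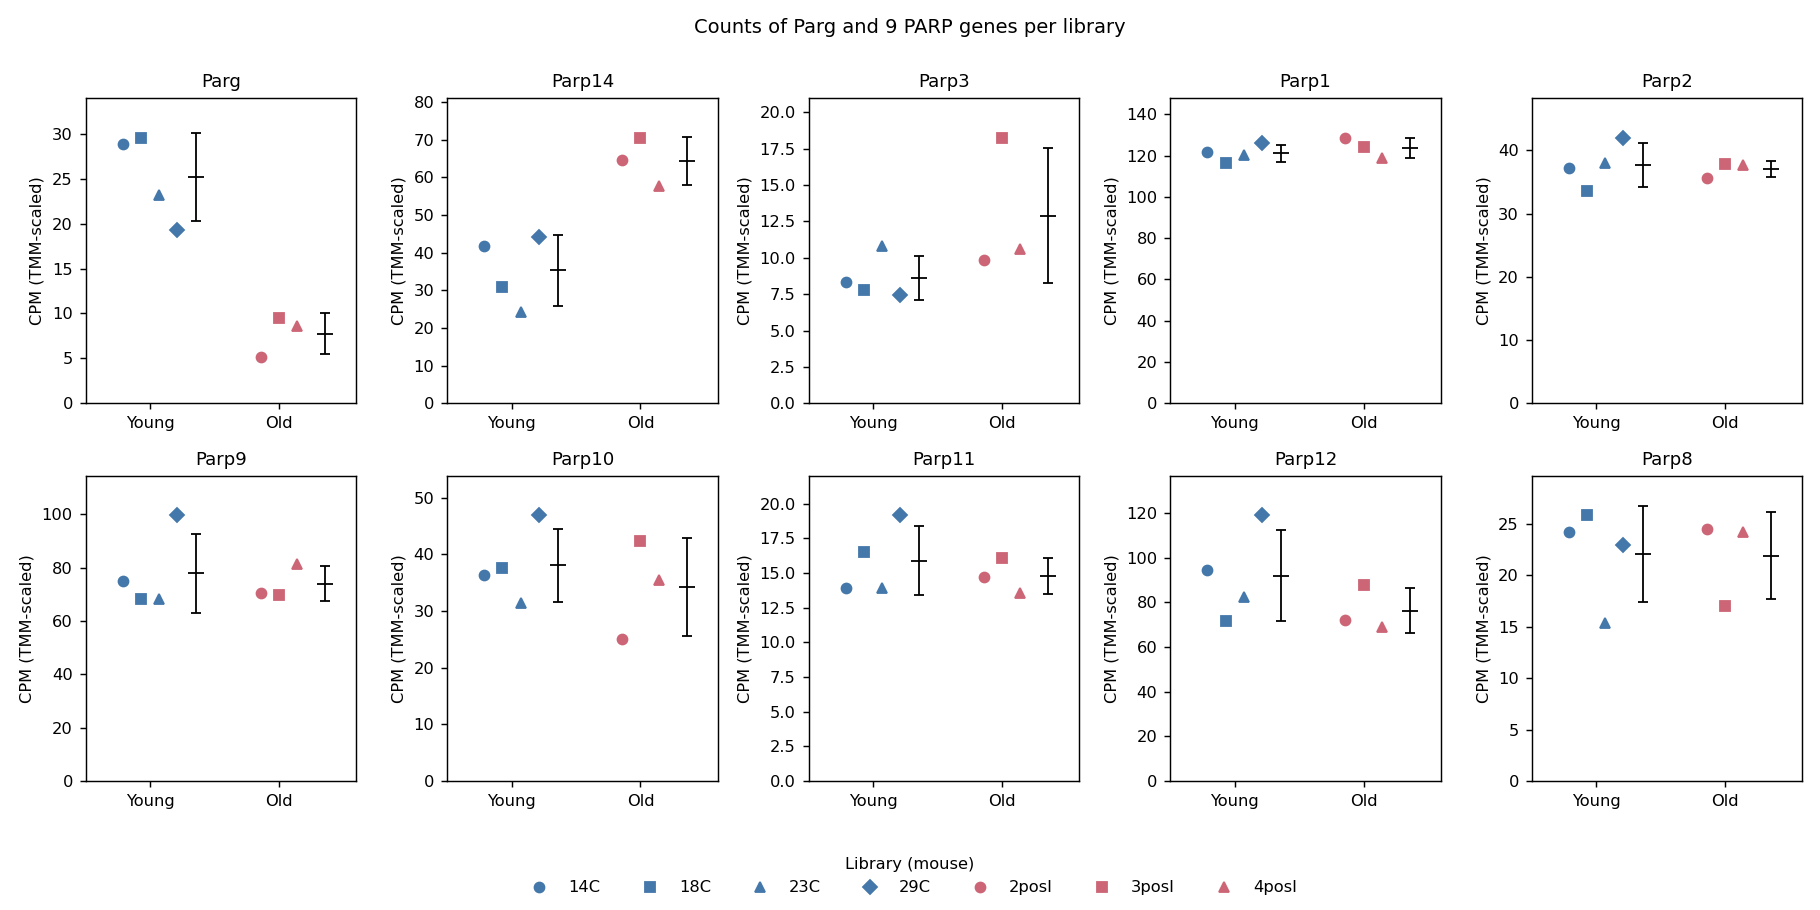
Level of each of the 10 genes (TMM-scaled CPM, linear axes from 0, a separate scale for each gene) in the 4 young (blue) and 3 old (red) libraries, with marker shapes for single mice and the group mean ± SD in black. Parg separates the ages downwards (19.2 to 29.6 against 5.16 to 9.51 CPM), Parp14 upwards (24.3 to 44.2 against 57.7 to 70.5 CPM), and the ages overlap for the other 8 genes.

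Parg lies on the plus strand of chromosome 14 (chr14:32201949-32297550, GRCm38). It was at 28.9, 29.6, 23.1 and 19.2 CPM in the young libraries 14C, 18C, 23C and 29C, and at 5.16, 9.51 and 8.57 CPM in the old libraries 2posI, 3posI and 4posI. Every old library was thus below every young one, with the gap running from 9.51 to 19.2 CPM. The mean fell from 25.2 ± 4.90 CPM (SD, n = 4) to 7.74 ± 2.29 CPM (SD, n = 3), that is, to 30.7% of the young level, with a log2FC of -1.70 (SE 0.25). Without 3posI, the library rich in monocyte markers, the log2FC was -1.87. The values were well above the range of sparse counts, with 895 to 1334 Parg reads in each young and 173 to 397 in each old library. Of all tested genes, 597 had a larger fitted fall than Parg, and of the 41 genes called lower in old mice 5 did.

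The annotated start of Parg faces that of Timm23, which encodes a subunit of the channel that imports proteins into mitochondria and runs from the minus strand. The stretch around both starts is shown because it is shared by a gene that was lower and a gene that was not, with the 50 bases between the starts in capitals and 30 bases on each side in lower case, on the plus strand as RefSeq gives it (GRCm38.p6, chr14:32201869-32201978, GC content 65.5%).
Parg and Timm23 starts: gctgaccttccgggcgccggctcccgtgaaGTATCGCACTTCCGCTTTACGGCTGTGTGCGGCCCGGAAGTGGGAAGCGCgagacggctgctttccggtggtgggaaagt
Timm23 was at 85.3, 65.9, 84.5 and 84.5 CPM in the young libraries and at 114, 132 and 85.7 CPM in the old ones, so the old libraries were all above the young ones, by little in 4posI. Its log2FC was 0.47 (SE 0.17), which did not pass the test (adjusted p = 0.189, edgeR). The expected counts of Parg were whole numbers in all 7 libraries, whereas RSEM gives fractions where reads are divided among genes. Those of Timm23 were fractional in all 7. Within Parg, the annotated antisense transcript Gm17210 and the pseudogene Gm7707 shared no exonic base with it, and adding the counts of either left the group means of Parg at 25.2 and 7.76 or 7.75 CPM.

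Set against Parp1, whose chains it removes, Parg also dropped out of the range of the young mice. On the TPM scale, the level of Parg was 20.9%, 20.7%, 18.8% and 13.6% of that of Parp1 in the young libraries and 3.47%, 7.46% and 7.10% in the old ones. Its own TPM values were 13.54, 13.60, 12.04 and 8.08 in young and 1.91, 4.15 and 3.91 in old mice. Among the tested genes with a mean of at least 10 CPM, the 3 with the pattern over the 7 libraries most like that of Parg were Fbxl18, an F-box gene, Ppp1r10, a regulatory subunit of a nuclear phosphatase, and Fosb, an immediate-early transcription factor of the AP-1 family. Likeness was measured as the root mean square difference of centred log2 CPM values, which was 0.234, 0.243 and 0.259 for these genes. The log2FC values of the 3 were -1.29, -1.25 and -1.24.

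Of the enzymes that respond to DNA breaks, Parp1 and Parp2 were at nearly the same level at both ages. Parp1 (chr1:180568924-180601254, plus strand), the main polymerase activated by DNA breaks, was at 122, 116, 120 and 126 CPM in young and 129, 124 and 119 CPM in old mice. The group means were 121 ± 4.13 (SD, n = 4) and 124 ± 4.90 CPM (SD, n = 3), with a log2FC of 0.03 (SE 0.10), and the coefficient of variation in young mice was 3.41%. Parp2 (chr14:50807841-50821301, plus strand), a second polymerase recruited to breaks, was at 33.6 to 42.0 CPM in young and 35.6 to 37.8 CPM in old mice, with a log2FC of -0.03 (SE 0.11). For both genes the counts of the ages overlapped. Parp3 (chr9:106470322-106476949, minus strand), which adds single units at double-strand breaks, was at 8.31, 7.81, 10.8 and 7.46 CPM in young and 9.83, 18.2 and 10.6 CPM in old mice. The high value belongs to 3posI, and the log2FC of 0.58 (SE 0.25) was 0.25 without that library.

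Parp14 and Parp9 lie close to each other on chromosome 16. Parp14 (chr16:35832874-35871544, minus strand) encodes a transferase of single units that also carries macrodomains, which bind ADP-ribose, and is known to be induced by interferon. It was at 41.8, 30.9, 24.3 and 44.2 CPM in young and at 64.7, 70.5 and 57.7 CPM in old mice, without overlap. The mean was 1.82 times higher in old mice (35.3 ± 9.36, SD, n = 4, against 64.3 ± 6.44 CPM, SD, n = 3), with a log2FC of 0.86 (SE 0.21), and of 0.79 without 3posI. The tested genes with the most similar pattern over the 7 libraries were Lst1, expressed in leukocytes, and Trim30a and Trim30d, members of the tripartite-motif family, at root mean square differences of 0.131, 0.158 and 0.159. The log2FC values of these genes were 0.93, 0.77 and 0.68.

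Parp9 (chr16:35938470-35972605, plus strand) carries macrodomains too and works as a partner of the ubiquitin ligase Dtx3l. In contrast to Parp14, it was at 75.1, 68.2, 68.4 and 99.6 CPM in young and 70.6, 69.9 and 81.5 CPM in old mice, and the log2FC was -0.07 (SE 0.16). The 3 old libraries fell inside the range of the young ones. The genes most like it were Sumf2, Cep89 and Mthfd1l, at root mean square differences of 0.0989, 0.0990 and 0.0993. The TPM of Parp14 amounted to 32.0%, 29.1%, 23.6% and 24.8% of that of Parp9 in the young libraries and to 42.7%, 53.1% and 40.2% in the old ones. Dtx3l, which starts head to head with Parp9 and shares 458 exonic bases with it, had a log2FC of 0.22 (SE 0.18, adjusted p = 0.546, edgeR). The log2FC of Dtx3l was 0.10 without 23C and 0.37 without 29C. The expected counts of Parp9 and Dtx3l were fractional in all 7 libraries.

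An antisense transcript at the Parp9 locus behaved differently from Parp9 itself. Gm15564, named here after its values were seen, overlaps the 3′ part of the gene on the opposite strand without sharing an exonic base in the annotation used. It was at 37.9, 32.0, 29.4 and 42.4 CPM in young and at 64.5, 81.3 and 72.3 CPM in old mice, with every old library above the young ones. It rose by a log2FC of 1.04 (SE 0.15, adjusted p = 0.0308, edgeR), from counts that were fractional in every library. This call was lost when any library other than 3posI was left out. Because the libraries hold no strand information, reads from Gm15564 cannot be told apart from unspliced reads of Parp9 or of Kpna1, which also overlaps it, at the same place. Kpna1 was at 58.7 to 71.0 CPM in young and 51.7 to 68.0 CPM in old mice. The summed level of Parp9 and Gm15564 was 97.8 to 142 CPM in young and 135 to 154 CPM in old mice, which overlap.

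**Figure D3:**
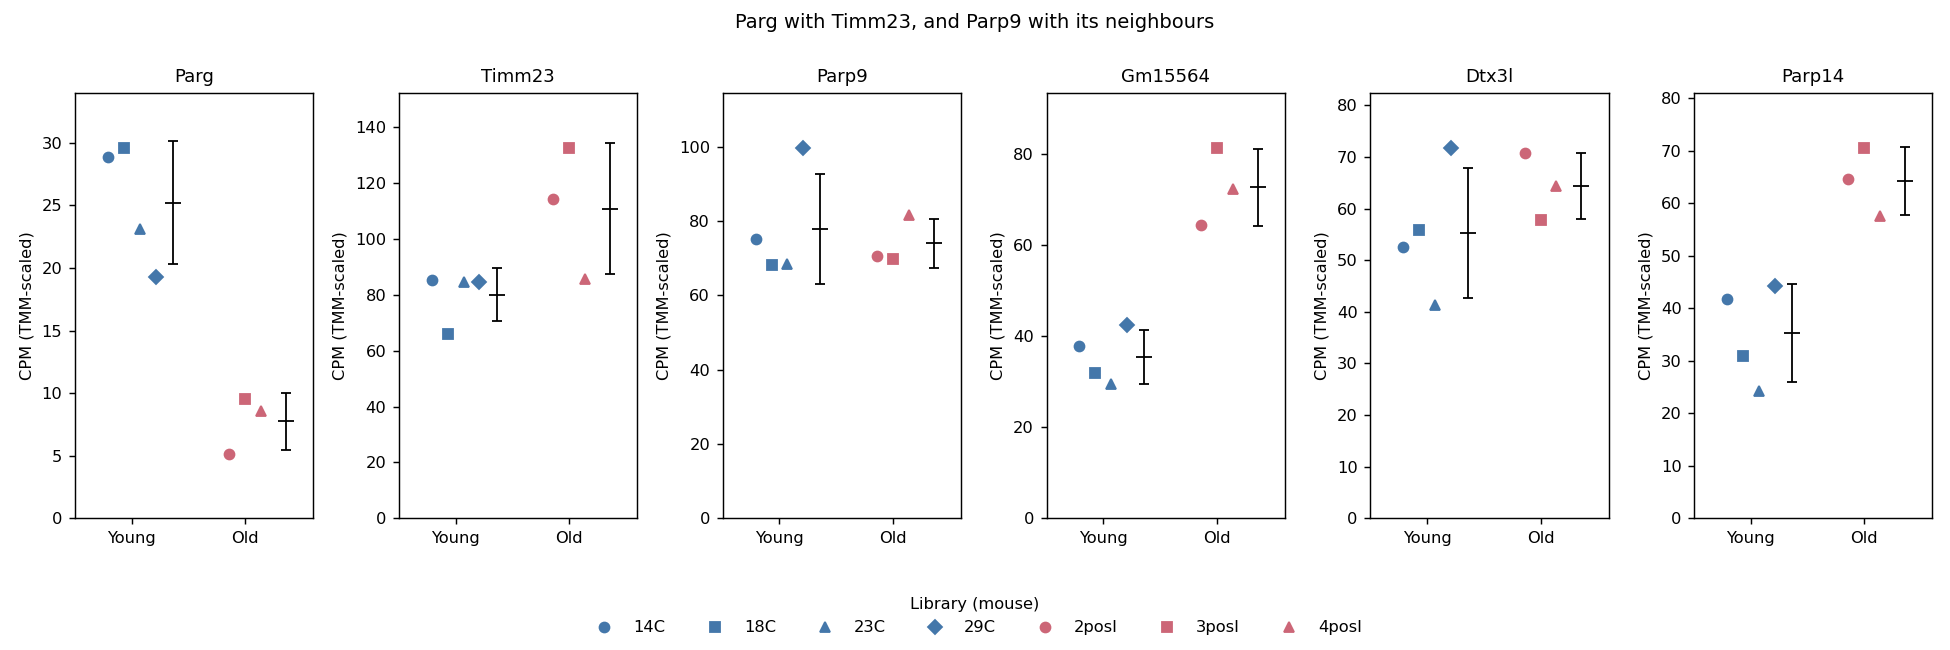
Level (TMM-scaled CPM, linear axes from 0) of Parg with its head-to-head neighbour Timm23, and of Parp9, the antisense transcript Gm15564, Dtx3l and Parp14 from chromosome 16, in each library, with the group mean ± SD in black. Parg is below the young range and Timm23, Gm15564 and Parp14 are above it in all 3 old libraries, while Parp9 and Dtx3l overlap between ages.

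Among the 10 genes, the other transferases of single units showed no separation by age. Parp12 (chr6:39086410-39118349, minus strand), a zinc finger protein induced by interferon, was at 94.5, 71.7, 82.3 and 119 CPM in young and 72.3, 87.6 and 69.1 CPM in old mice, with a log2FC of -0.27 (SE 0.18) that was -0.38 without 3posI and -0.12 without 29C. Parp10 (chr15:76231174-76243441, minus strand) was at 31.5 to 46.9 CPM in young and at 25.1, 42.3 and 35.5 CPM in 2posI, 3posI and 4posI, with a log2FC of -0.15 (SE 0.20) that was -0.33 without 3posI and 0.03 without 2posI. Parp11 (chr6:127446840-127494261, plus strand), known to act on a ubiquitin ligase that marks the type I interferon receptor for degradation, was at 13.9 to 19.2 CPM in young and 13.6 to 16.1 CPM in old mice, with a log2FC of -0.10 (SE 0.16) that was -0.17 without 3posI and -0.000536 without 29C. The young library 29C was the highest of the 7 for Parp9, Parp10, Parp11 and Parp12. Parp8 (chr13:116854820-117025537, minus strand), a little studied member, was at 15.4 to 25.8 CPM in young and 17.0 to 24.5 CPM in old mice, with a log2FC of -0.01 (SE 0.21) that was 0.14 without 3posI and -0.15 without 23C.

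RefSeq promoter windows, from 250 bases before to 50 bases after a start (GRCm38.p6), were matched by symbol for 7 of the 10 genes (not Parp9, Parp10 and Parp14), as 9 windows. They were searched on both strands for the core of the interferon-stimulated response element, GAAANNGAA, and for the core of the gamma-activated site, TTCNNNGAA, which are the letters bound by interferon-activated transcription factors. A window of Parp11 held both motifs, overlapping each other, and none of the other windows held either, where 8.56% and 8.30% of all 32851 promoter windows hold them. The Parp11 stretch from 100 bases before to 30 after the start is shown for that reason (chr6:127446740-127446869, plus strand), with the match to the first core, found as its reverse complement, in capitals. The counts of Parp11 overlapped between the ages.
Parp11 promoter: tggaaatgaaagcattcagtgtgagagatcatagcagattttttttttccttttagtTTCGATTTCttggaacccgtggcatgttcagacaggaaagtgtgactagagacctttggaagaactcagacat

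The order of the levels was compared on the TPM scale, within each age. In young mice Parp1 was the highest (mean 63.6 TPM), followed by Parp12 and Parp9 (40.4 each), whose ranges overlapped, Parp2 (30.0) and Parp10 (18.1). Parg (11.8), Parp14 (11.0), Parp8 (10.1) and Parp11 (10.1) came next with ranges that overlapped from one to the next, and Parp3 was last (5.17 ± 0.931, SD, n = 4). In old mice Parp1 again led (55.2), followed by Parp9 (35.5), Parp12 (31.6) and Parp2 (27.8), which overlapped, and by Parp10 (18.7) and Parp14 (15.9), which overlapped too. Parp8 (9.45), Parp11 (9.11) and Parp3 (7.53) followed, and Parg was last (3.32 ± 1.23, SD, n = 3), with all its old values below those of the others. The summed TPM of the 10 genes was 228 to 257 in young mice and 192, 223 and 228 in 2posI, 3posI and 4posI.

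For some of the genes the change depended on the scale, and the mean transcript length that RSEM assigned to the gene also differed between ages. On the TPM scale, Parg and Parp1 were below the young range in all old libraries, where 11.2% of all tested genes were, and Parp14 was above it, where 6.26% were. The level of Parp1 was 64.9, 65.7, 64.1 and 59.6 TPM in young and 55.0, 55.7 and 55.1 TPM in old mice, although its counts did not differ in this way. Its mean length was 2696 ± 91.6 bases (SD, n = 4) in young and 2972 ± 134 bases (SD, n = 3) in old mice. Parp14 reached 12.76, 10.70, 8.56 and 12.05 TPM in young and 13.2, 17.5 and 17.0 TPM in old mice, a ratio of means of 1.45. Its mean length was 4432 ± 365 bases (SD, n = 4) in young and 5355 ± 596 bases (SD, n = 3) in old mice, over annotated transcripts of 580 to 7417 bases. With the effective lengths of RSEM as an offset, the log2FC of Parp14 was 0.63 in place of 0.86, and on the log2(TPM + 1) scale it was 0.50.

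Length varied between libraries for 8 of the 10 genes. It was above the young range in all old libraries for Parp1, Parp9 and Parp14, an arrangement that held for 13.0% of the tested genes with varying length, and below it for Parp10, as for 6.31% of them. Parp9 went from 2709 ± 23.3 (SD, n = 4) to 2789 ± 52.0 bases (SD, n = 3), and Parp10 from 2958 ± 91.0 (SD, n = 4) to 2437 ± 159 bases (SD, n = 3). The log2FC of Parp10 was -0.15 in counts, 0.14 with the effective-length offset and 0.03 on the log2(TPM + 1) scale. That of Parp1 was 0.03 in counts, -0.09 with the offset and -0.20 on the log2(TPM + 1) scale. Parp2 and Parp8, whose length did not vary, were at -0.03 and -0.01 in counts and at -0.11 and -0.09 on that scale. Why values differed between the scales was not tested. Counts of Parp9 were whole in none of the 7 libraries, those of Parp10 in 2 and those of Parp1 in 4. Parp10 shares 205 exonic bases with Plec, an overlapping gene on the same strand. Plec was at 120 CPM in 3posI and at 17.8 to 54.1 CPM in the other libraries. The source of the fractions was not tested. Which transcripts were used in either age was not tested.

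**Figure D4:**
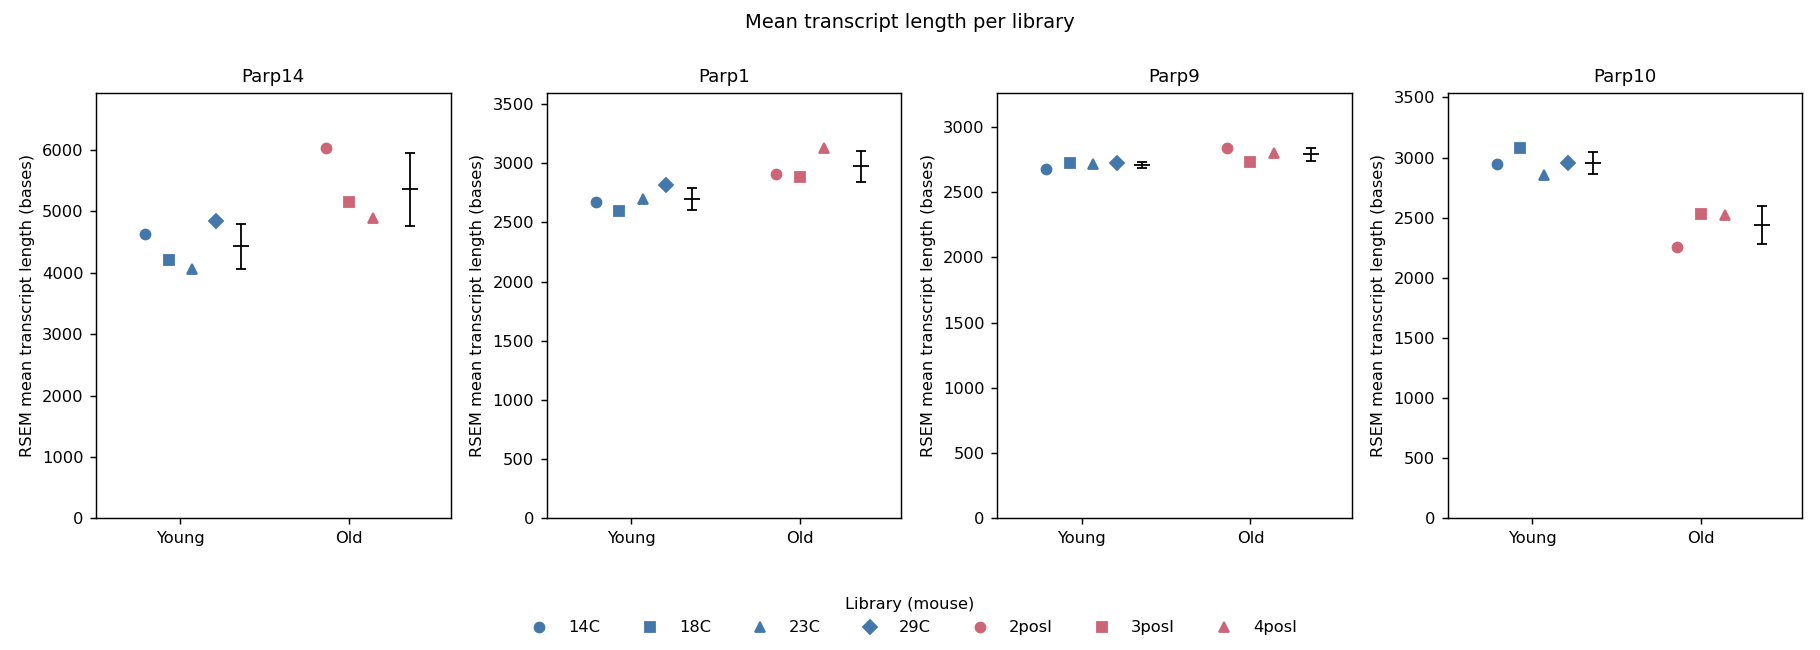
Mean transcript length (bases, linear axes from 0) that RSEM assigned to Parp14, Parp1, Parp9 and Parp10 in each library, with the group mean ± SD in black. All 3 old libraries lie above the young range for Parp14, Parp1 and Parp9 and below it for Parp10, where the mean is 2958 bases in young and 2437 bases in old mice.

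The rest of the PARP family was compared in the same fit. Of the 7 other family members, 5 had a log2FC above 0 and 2 below, with a median of 0.17 beside -0.01 over all tested genes. Parp16, an enzyme anchored in the endoplasmic reticulum, had the lowest value of the 7, at 9.25 ± 0.822 CPM (SD, n = 4) in young and 5.10 ± 1.82 CPM (SD, n = 3) in old mice, with all old libraries below the young ones and a log2FC of -0.86 (SE 0.25, adjusted p = 0.134, edgeR). Tnks2, a tankyrase that modifies Axin in the Wnt pathway, was at 40.1 to 67.3 CPM in young and at 93.6, 68.0 and 78.3 CPM in old mice, with a log2FC of 0.48 (SE 0.19, adjusted p = 0.220, edgeR). Tiparp, a target of the aryl hydrocarbon receptor, had a log2FC of 0.53 that rested on 129 CPM in 3posI and was -0.21 without that library. The values of the others were 0.17 for Tnks (0.03 to 0.29 when a library was left out), 0.30 for the vault component Parp4 (0.17 to 0.58), -0.16 for Parp6 (-0.29 to -0.04) and 0.05 for the antiviral protein Zc3hav1.

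**Figure D5:**
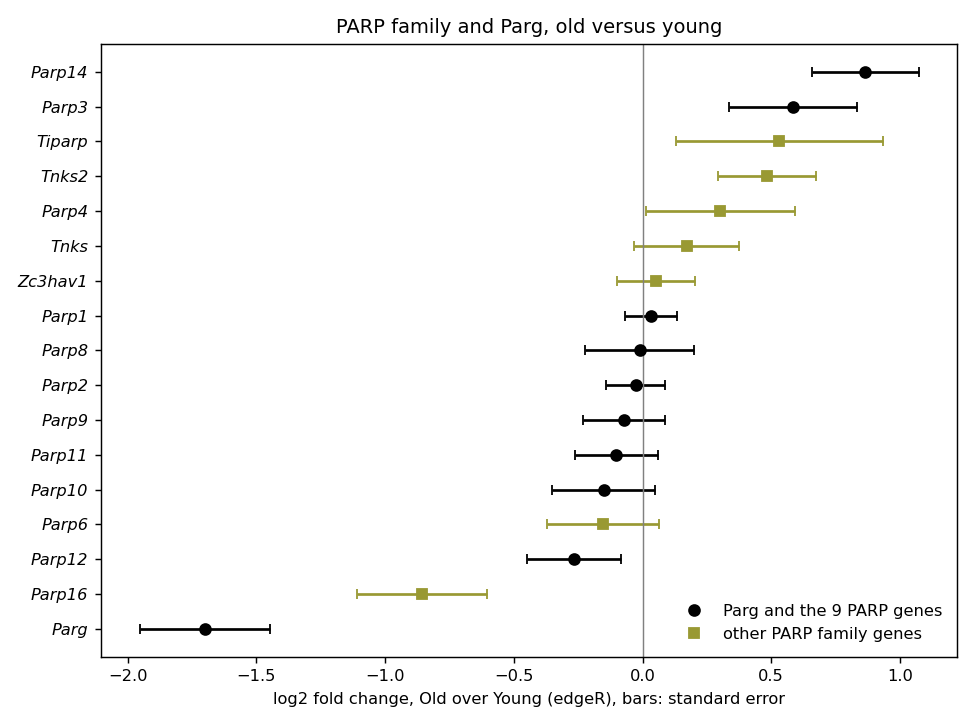
Log2FC of old over young mice (edgeR, horizontal axis) with its standard error for Parg and the 9 PARP genes (black circles) and 7 other PARP family genes (squares), ordered by value. Parg lies at -1.70 and Parp14 at 0.86, and most of the genes lie within 0.6 of 0.

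Genes that work around ADP-ribose were counted over 5 lists, the 7 family members included. Of the 81 tested genes on these lists, edgeR called 0 at an adjusted p under 0.05, as did limma-voom, where edgeR called 0.803% of all tested genes. DESeq2 called 7 of the 81, where it called 7.97% of all tested genes. At an unadjusted p under 0.05 there were 17, of which 13 were higher and 4 lower in old mice, and 18.9% of all tested genes lay under that value. Among 13 tested cofactors, readers and erasers of ADP-ribose, 10 were on the higher and 3 on the lower side, with a median of 0.11 and Adprh as the most abundant. Adprhl2, the hydrolase that removes ADP-ribose from serines, was below the young range in all old libraries, at 31.6 ± 1.67 (SD, n = 4) and 25.1 ± 2.13 CPM (SD, n = 3), with a log2FC of -0.33 (SE 0.12, adjusted p = 0.180, edgeR). The hydrolase gene Macrod2 was near the limit of detection, at 0.513 CPM in young and 0.872 CPM in old mice, with a log2FC of 0.76 (adjusted p = 0.348, edgeR). Nudt16, which cuts ADP-ribose at its phosphate bond, had a log2FC of 0.27 (SE 0.18). That value was 0.11 to 0.38 when a library was left out and 0.12 on the log2(TPM + 1) scale.

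Of 15 genes of single-strand break and base excision repair, the work that Parp1 and Parp2 call up, 10 were on the higher and 5 on the lower side, with a median of 0.06. Ogg1, the glycosylase that removes oxidized guanine, was at 4.28 to 4.79 CPM in young and at 6.53, 7.76 and 5.96 CPM in old mice. Its log2FC was 0.58 (SE 0.18, adjusted p = 0.153, edgeR), from counts that were fractional in all libraries. The uracil glycosylase gene Ung had a log2FC of -0.41 (SE 0.18, adjusted p = 0.255, edgeR) and Aptx, whose product mends blocked DNA ends, one of 0.21 (SE 0.13). Of 21 genes that make NAD+ or use it besides PARPs, 10 were on the higher and 11 on the lower side, with a median of -0.03. Sirt1, a deacetylase that uses NAD+, was at 3.56 ± 0.692 CPM (SD, n = 4) in young and 6.27 ± 0.450 CPM (SD, n = 3) in old mice, without overlap, with a log2FC of 0.82 (SE 0.22, adjusted p = 0.111, edgeR). For Sirt1, DESeq2 gave an adjusted p of 0.00686, and the log2FC on the log2(TPM + 1) scale was 0.43. Sirt1 was not alone in this. The adjusted p of DESeq2 was also under 0.05 for Ogg1 (0.0288) and Parp16 (0.0245). The same held for Bst2 (0.0221), Oas1a (0.0208) and Tyk2 (0.000927) of the interferon list below. Nampt, the rate-limiting enzyme of NAD+ salvage, was at 55.5 to 80.8 CPM in young and at 85.8, 177 and 87.5 CPM in old mice, and its log2FC of 0.67 (adjusted p = 0.228, edgeR) was 0.24 without 3posI. Bst1, a surface enzyme that uses NAD+, was at 40.4 CPM in 3posI and at 1.48 to 7.40 CPM in the other libraries, and its log2FC of 1.79 was -0.31 without 3posI.

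Interferon signalling was listed because Parp9, Parp12 and Parp14 are known interferon targets. Of its 25 genes, all tested, 17 were on the higher and 8 on the lower side, with a median of 0.36 beside -0.01 over all tested genes, and at an unadjusted p under 0.05 there were 9 on the higher side and 1 on the lower, where 18.9% of all tested genes lay in either direction. The summed level of the list was 2780, 2504, 2410 and 3906 CPM in young and 3487, 3918 and 3583 CPM in old mice, and the young library 29C, the highest of all for Parp9 and Parp12, was also the highest of the young here. Bst2, the antiviral protein tetherin, was at 228, 206, 221 and 353 CPM in young and 377, 468 and 398 CPM in old mice. Its log2FC was 0.72 (SE 0.20, adjusted p = 0.128, edgeR). The antiviral synthetase gene Oas1a had a log2FC of 0.97 (SE 0.28, adjusted p = 0.131, edgeR), without overlap between ages and from fractional counts. Tyk2, a kinase of the type I interferon receptor, went the other way, at 53.9, 60.5, 55.6 and 53.1 CPM in young and 28.0, 39.6 and 35.0 CPM in old mice, with a log2FC of -0.71 (SE 0.14, adjusted p = 0.0591, edgeR).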

How the data were processed

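The 7 libraries hold expected counts, TPM and FPKM values per gene, which the authors made with STAR and RSEM (genome GRCm38, annotation GENCODE m15). The sources used here give no version of either tool. The deposited expected counts carry no normalization. The authors' TPM values, scaled within each library, served for levels and 1 alternative, and the deposited FPKM values were not used. Expected counts were rounded. A gene was tested where any library had a count above 10, and 614 such genes of chromosomes X, Y and M were removed. edgeR 4.0.16 (R 4.3.3) gave TMM factors and quasi-likelihood tests with age as the only term, and p-values were adjusted by Benjamini-Hochberg over all 17559 tested genes, with calls under 0.05. Under this rule 141 genes were called, 100 higher and 41 lower in old mice. Log2 CPM values have a prior count of 1, and counts within 0.001 of a whole number were taken as whole. No molecular identifiers are named, so PCR copies may be counted separately. Positions are from GENCODE vM21, in which 224 of the 50686 identifiers were not found. The 10 genes, the gene and marker lists and the tests were chosen with earlier results of these data known. Named by rule are all 10 genes, all other family genes, in each other list the 3 genes of smallest p, Dtx3l, the most abundant marker of each list (over all libraries and within each age) and the 3 genes most like Parg, Parp9 and Parp14. Genes named after their values were seen are marked. Alternatives were limma-voom (limma 3.58.1), DESeq2 1.42.0, RLE and upper-quartile factors, no filter, filterByExpr, X, Y and M kept, an effective-length offset, log2(TPM + 1) with limma, an adjusted p under 0.1, and each library left out. Protein sequences were not analysed here. Of the microglial markers, 1 is not reported here and was left out of the sum.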

Additional observations from a re-analysis of the deposited data

Results flagged for a closer look

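Among 50 groups of 4 young libraries examined for a library far from the others, 2 had a gap to the nearest library that took up more of the whole range than Dixon's 95% critical value allows, where chance gives about 2.5. For Bst2, the young library 29C, at 353 CPM, was apart from 206 to 228 CPM in the other young mice, with a gap of 0.850 of the range. For Nampt, the young library 18C, at 55.5 CPM, was below 78.5 to 80.8 CPM in the others, with a gap of 0.911 of the range. The old mice, at 3 libraries, were too few to be examined in this way.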

How the results depend on the processing

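Over 16 alternative fits, the log2 fold change of Parg was -1.87 to -1.48 when a library was left out and -1.74 to -1.59 otherwise. Every old library was below every young one in CPM and TPM. Leaving out a library could therefore not turn the direction, and nothing is read from its being kept. The place of Parg among the genes called was lost on the log2(TPM + 1) scale and when any library other than 3posI was left out. Parp14 ranged from 0.72 to 0.99 and from 0.50 to 0.90. The number of genes called, 141 (70.9% higher), was 1399 (53.2% higher) with DESeq2, 288 (54.5%) without a filter, 213 (61.5%) with the effective-length offset, 64 (50.0%) on the log2(TPM + 1) scale and 637 (59.2%) at an adjusted p under 0.1. It ranged from 1 to 159 when a library was left out: 1 without 14C, 18C or 2posI, 2 without 29C, 14 without 23C, 85 without 4posI and 159 without 3posI. The count of 0 called genes on the 5 lists was 7 with DESeq2, 1 without a filter, 1 at an adjusted p under 0.1, and 0 to 1 when a library was left out; the 1 gene was Tyk2 each time, and without 3posI its adjusted p was 0.0447. Parp1, Parp2, Parp8, Parp9 and Parp10, all near 0, changed sign under some alternatives, with ranges over libraries left out of 0.00395 to 0.06, -0.07 to 0.03, -0.15 to 0.14, -0.15 to 0.07 and -0.33 to 0.03, and over the other fits of -0.20 to 0.04, -0.11 to -0.01, -0.09 to 0.00164, -0.19 to -0.06 and -0.19 to 0.14. With a library left out, Parp3, Parp11 and Parp12 ranged from 0.25 to 0.75, -0.17 to -0.000536 and -0.38 to -0.12. Among the other named genes, directions turned for Bst1 (-0.31) and Tiparp (-0.21) without 3posI and for Zc3hav1 on the log2(TPM + 1) scale (-0.0174), without 18C (-0.00314) and without 23C (-0.00845); the highest values with a library left out were 2.28, 0.85 and 0.18. The cause of these changes was not tested. Under the other alternatives, limma-voom, the other scaling factors, filterByExpr and chromosomes X, Y and M kept, both counts stayed within 1.5 times. No paired analysis was possible, because each library came from a different mouse and no label pairs mice of the 2 ages. The labels name no batch. The animal codes differ in form between the ages, so a sorting or processing series that followed them could not be told apart from age. With 3 and 4 mice, an exact permutation test of a single value cannot give a p below 0.0286.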
